A study of Mus musculus with 106 samples.

Results

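The 10 genes for AMPA-type glutamate receptors and their auxiliary subunits were described in the deposited counts of a mouse study of Huntington's disease (HD). They were chosen by name, 10 of the 55401 mouse genes counted, and are *Gria1*, *Gria2*, *Gria3*, *Gria4*, *Gsg1l*, *Cacng2*, *Cacng3*, *Cacng7*, *Cacng8* and *Cnih2*. The study asked how neuron types of the cerebrum and the cerebellum respond early in HD. It read their translated mRNA with RiboTag, in which Cre switches on an HA-tagged ribosomal protein (Rpl22-HA) in 1 cell type and an antibody against the tag pulls down ribosome-bound mRNA (the IP). HD mice carried 1 expanded *Htt* knock-in allele (Hdh Q7/Q200) and control mice none (Hdh Q7/Q7), on the 129S4 background, heterozygous for Cre and RiboTag and about 9 months old, as far as the sources describe the Gad2, vGluT2 and PV lines. The Cre lines were Gad2-IRES-Cre for GABAergic neurons, vGluT2-IRES-Cre for glutamatergic neurons that use *Slc17a6*, PV-IRES-Cre for parvalbumin neurons, and an SST line, of which the sources used here give the label HD or control but not the driver allele or age. The paper's supplement gives the 129S4 background for all its mice, without naming the SST line. Gad2 and vGluT2 lines were sampled in cerebrum (olfactory bulb removed) and cerebellum, PV and SST lines in cerebrum, and total RNA, which holds all cells of the tissue, was sequenced beside the IPs. In the text, Gad2+, PV+, SST+ and vGluT2+ name the Cre line of an IP.

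The 106 libraries came from 45 mice, 67 of them IPs and 39 total RNA. Controls and HD mice numbered 6 and 6 for cerebral Gad2+ IPs, 6 and 5 for PV+ IPs, 5 and 4 for SST+ IPs, 6 and 6 for cerebral vGluT2+ IPs, 6 and 6 for cerebellar Gad2+ IPs and 5 and 6 for cerebellar vGluT2+ IPs. Total RNA had 3 controls and 3 HD mice in each of the cerebral Gad2, PV and vGluT2 lines and the cerebellar Gad2 line, 4 and 3 in the SST line and 4 and 4 in the cerebellar vGluT2 line. Summed counts per library ran from 25849571 to 42528280 (control) and 24294217 to 45434032 (HD) in cerebral Gad2+ IPs, 23256772 to 47869606 and 32941857 to 107753586 in PV+ IPs, and 28527927 to 40913897 and 30868911 to 37196196 in SST+ IPs. They ran from 29903359 to 68022491 and 33195164 to 60611444 in cerebral vGluT2+ IPs, 28961144 to 40661320 and 26873252 to 93692499 in cerebellar Gad2+ IPs, and 34229855 to 40085593 and 30077290 to 44073911 in cerebellar vGluT2+ IPs. Cerebral total RNA held 21905221 to 62160033 and cerebellar total RNA 27239383 to 54734074 over both genotypes. Levels are CPM, the counts scaled to library size with TMM factors, and levels of different genes are compared only as CPM per kb of exon.

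AMPA receptors carry most fast excitatory transmission in the brain and are tetramers of the pore subunits GluA1 to GluA4. Receptors that hold an edited GluA2 subunit pass little calcium, and auxiliary subunits set how receptors are exported, anchored and gated. Cerebellar granule cells are known for their reliance on the TARP stargazin, and GABAergic interneurons for receptors low in GluA2.

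The pore subunits are encoded by *Gria1* (ENSMUSG00000020524.16, GRCm38 chr11:57011387-57330244, plus strand), *Gria2* (ENSMUSG00000033981.14, chr3:80681450-80802835, minus strand), *Gria3* (ENSMUSG00000001986.16, chrX:41400854-41678601, plus strand) and *Gria4* (ENSMUSG00000025892.16, chr9:4417896-4796234, minus strand). *Gsg1l* (ENSMUSG00000046182.8, chr7:125878420-126082411, minus strand) encodes a claudin-like auxiliary subunit that dampens receptor currents. TARPs, which anchor receptors at synapses and shape their gating, are encoded by *Cacng2* (ENSMUSG00000019146.2, chr15:77991748-78120028, minus strand; stargazin), *Cacng3* (ENSMUSG00000066189.9, chr7:122670492-122769393, plus strand), *Cacng7* (ENSMUSG00000069806.5, chr7:3332955-3368221, plus strand) and *Cacng8* (ENSMUSG00000053395.15, chr7:3390683-3415648, plus strand). *Cnih2* (ENSMUSG00000024873.7, chr19:5092868-5098521, minus strand) encodes a cornichon that promotes export of receptors and slows their deactivation. Exons of a gene covered 15.5 kb for *Gria2*, 9.86 kb for *Gria3*, 6.30 kb for *Gria4*, 6.04 kb for *Gria1*, 5.51 kb for *Cacng2*, 3.92 kb for *Gsg1l*, 2.78 kb for *Cacng3*, 2.44 kb for *Cacng7*, 2.35 kb for *Cacng8* and 1.37 kb for *Cnih2*. Of the distinct 31-base words in their transcripts, the share that another gene also holds was highest for *Cacng2*, at 6.45%, and 2.64% for *Cacng8*. For the other 8 genes it was at most 1.49%. All 10 genes passed the minimum mean count of 10 in every comparison, although *Cacng3* came down to 26 estimated counts in its lowest library and *Cacng8* to 67.

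Markers of the targeted cells were checked first, in control IPs. *Gad2* had 418 ± 88.8 CPM (SD, n = 6) in cerebral Gad2+ IPs and 267 ± 47.5 (n = 6) in cerebellar Gad2+ IPs. It had 20.8 ± 6.77 and 20.1 ± 7.67 in cerebral (n = 6) and cerebellar (n = 5) vGluT2+ IPs. *Pvalb* had 615 ± 96.5 CPM in PV+ IPs (n = 6) and 145 ± 32.7 in SST+ IPs (n = 5), and *Sst* had 1326 ± 293 and 97.8 ± 22.7 in the same IPs. *Slc17a6*, which encodes vGluT2, had 114 ± 38.5 CPM in cerebral vGluT2+ IPs but also 116 ± 20.5 in PV+ IPs and 106 ± 22.7 in SST+ IPs, so by this gene the cerebral vGluT2+ IPs did not stand above those interneuron IPs. *Slc17a7*, the transporter of cortical and hippocampal excitatory neurons, had 2061 ± 250.4 CPM in cerebral vGluT2+ IPs, 830.1 ± 90.8 in PV+ IPs and 785 ± 134 in SST+ IPs. In cerebellar vGluT2+ IPs, *Slc17a6* was at 45.0 ± 37.2 CPM, with 109 in the highest library, and *Gabra6*, a granule cell receptor subunit, at 1271 ± 177 against 136 ± 46.7 in cerebellar Gad2+ IPs. Cerebellar vGluT2+ IPs were therefore high in a granule cell marker and PV+ and SST+ IPs held markers of excitatory neurons, and the levels below are those of such mixtures.

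Among control IPs, all 4 pore subunit genes had their highest or lowest mean in a cerebellar cell type. *Gria1* was lower in cerebellar vGluT2+ IPs than in all others, *Gria2* and *Gria3* were lowest there, *Gria3* was highest in cerebellar Gad2+ IPs, and *Gria4* had its 2 highest means in the cerebellum. For 4 genes the spread within groups most closely followed length balance, a measure per library of long against short transcripts defined with the cerebellar total RNA. Over deviations of the 106 libraries from their group means, which share mice, r was 0.856 for *Gria2*, 0.857 for *Gria3*, 0.892 for *Gria4* and −0.904 for *Cnih2*. For the other genes r ran from −0.60 (*Cacng7*) to 0.50 (*Gria1*). With length balance as a covariate edgeR lost no call of the 10 genes between control cell types and made 6 more. Length balance is centred within each line, region and preparation, so it can hardly take up a difference between cell types. Keeping these calls therefore says nothing about its part in them. Calls over all genes rose too in each of these comparisons, as from 2147 to 3032 between PV+ IPs and SST+ IPs. In such bulk preparations, fewer cells of a type and less RNA per cell cannot be told apart.

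*Gria1*, the subunit best known from hippocampal plasticity, had CPM per kb of 85.0 ± 11.5 (SD) in cerebral Gad2+ IPs, 82.9 ± 12.5 in SST+ IPs, 72.8 ± 9.68 in PV+ IPs, 63.0 ± 5.39 in cerebral vGluT2+ IPs, 48.0 ± 3.63 in cerebellar Gad2+ IPs and 12.6 ± 3.80 in cerebellar vGluT2+ IPs. The cerebellar vGluT2+ IPs held 56.1, 113, 56.8, 76.5 and 77.1 and the cerebellar Gad2+ IPs 259.5 to 321 CPM with a median of 287. These 2 groups did not overlap, and all 6 cerebellar Gad2+ IPs lay below all cerebral IPs, whereas the 4 cerebral groups overlapped each in turn. *Gria1* in cerebellar vGluT2+ IPs differed from cerebellar Gad2+ IPs by −1.89 (SE 0.145, adjusted p = 2.70e-13) on the log2 scale, lower in 5 of 5 libraries. The test was edgeR's quasi-likelihood test, and p is adjusted over all genes tested by the Benjamini-Hochberg method with a threshold of 0.05. Cerebral Gad2+ IPs exceeded cerebral vGluT2+ IPs by 0.47 (SE 0.131, adjusted p = 0.00508) in the same edgeR test, with 5 of 6 libraries above 5 of 6, and the other tested cerebral neighbours did not pass.

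*Gria2*, whose edited product makes the receptor nearly impermeable to calcium, varied widely between libraries of a group. Its CPM per kb was 27.1 ± 9.33 in cerebral vGluT2+ IPs, 18.2 ± 4.63 in SST+ IPs, 18.1 ± 5.58 in cerebral Gad2+ IPs, 18.0 ± 2.98 in cerebellar Gad2+ IPs, 13.6 ± 3.37 in PV+ IPs and 8.64 ± 1.503 in cerebellar vGluT2+ IPs. The cerebral vGluT2+ IPs ran from 156 to 557 CPM with a median of 470.4. The cerebellar vGluT2+ IPs held 114, 142, 106, 153 and 157 CPM. Each neighbour in this order overlapped the next. Of the tested pairs, PV+ IPs differed from cerebral vGluT2+ IPs by −0.91 (SE 0.231, adjusted p = 0.00112), with 5 of 6 vGluT2+ libraries above every PV+ library. Cerebellar vGluT2+ IPs differed from cerebellar Gad2+ IPs by −1.02 (SE 0.245, adjusted p = 6.27e-04) with no overlap, both by edgeR.

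*Gria3*, an X-linked subunit, had 35.6 ± 5.07 CPM per kb in cerebellar Gad2+ IPs, 23.7 ± 4.69 in SST+ IPs, 22.7 ± 3.56 in PV+ IPs, 21.5 ± 5.12 in cerebral vGluT2+ IPs, 14.96 ± 4.35 in cerebral Gad2+ IPs and 3.03 ± 1.11 in cerebellar vGluT2+ IPs. The cerebellar vGluT2+ IPs held 19.0, 41.9, 18.4, 31 and 39.1 CPM, all below the 68.9 to 185 CPM with a median of 160.3 of the cerebral Gad2+ IPs next above them. The other 4 steps of the order overlapped. Between the 2 cerebellar IPs the log2 difference was −3.51 (SE 0.248, adjusted p = 4.00e-14) in edgeR's quasi-likelihood test, lower in 5 of 5 vGluT2+ libraries.

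*Gria4*, a subunit with fast kinetics that is abundant in the cerebellum, had 44.2 ± 6.47 CPM per kb in cerebellar Gad2+ IPs, 33.9 ± 5.68 in cerebellar vGluT2+ IPs, 24.8 ± 3.49 in PV+ IPs, 18.3 ± 3.38 in SST+ IPs, 15.5 ± 2.82 in cerebral Gad2+ IPs and 11.9 ± 3.01 in cerebral vGluT2+ IPs. The cerebellar Gad2+ IPs ran from 237 to 345 CPM with a median of 271, and the cerebellar vGluT2+ IPs held 204, 265, 179.6, 234 and 185. Each neighbour overlapped the next, but all 6 cerebellar Gad2+ IPs exceeded all cerebral libraries. Cerebellar Gad2+ IPs exceeded cerebral Gad2+ IPs by 1.44 (SE 0.161, adjusted p = 1.90e-09) on the log2 scale by edgeR, in 6 of 6 libraries. Those from vGluT2+ neurons exceeded cerebral ones by 1.54 (SE 0.167, adjusted p = 8.31e-10) in the same edgeR test, in 5 of 5. In the step from cerebral Gad2+ IPs to cerebral vGluT2+ IPs, the edgeR difference of 0.43 (SE 0.159, adjusted p = 0.0353) had an adjusted p of 0.0557 in DESeq2, which misses the threshold, with 4 of 6 Gad2+ libraries above every vGluT2+ library.

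**Figure D1:**
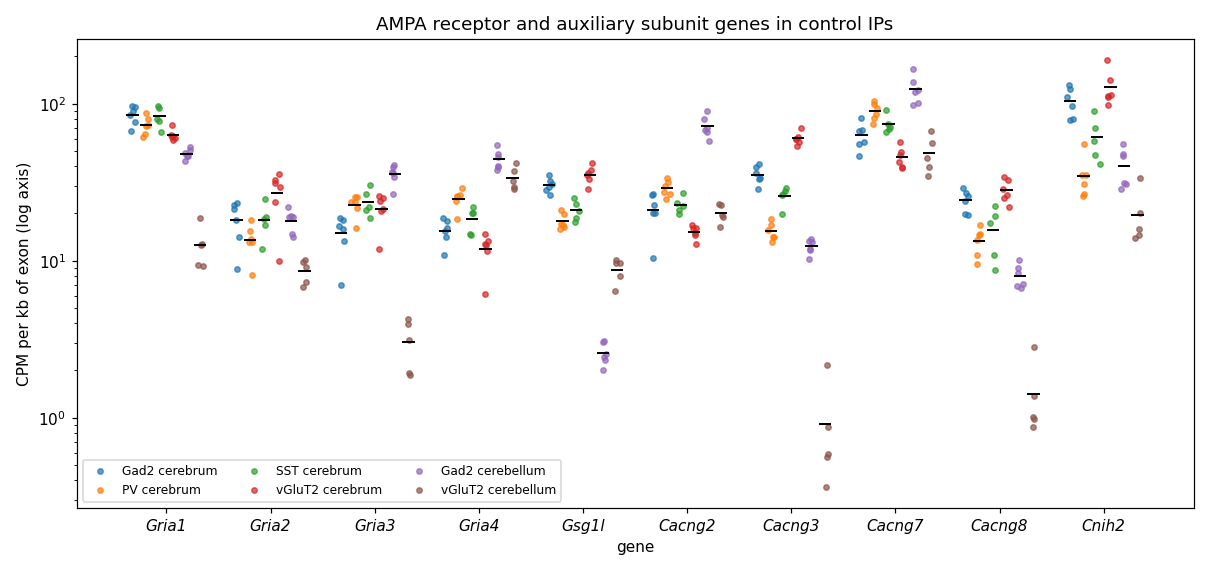
Level of each of the 10 genes in control IPs, in CPM per kb of exon on a log axis; each point is 1 library (5 or 6 per Cre line and region) and each black bar the mean. *Cacng3* and *Cacng8* in cerebellar vGluT2+ IPs, at 0.909 ± 0.720 and 1.42 ± 0.816 CPM per kb (mean ± SD), lie below all other groups of the same genes.

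As shares of the summed CPM per kb of *Gria1* to *Gria4*, *Gria1* made up 64.0% ± 6.33 (SD) in cerebral Gad2+ IPs, 57.96% ± 6.39 in SST+ IPs, 54.4% ± 5.56 in PV+ IPs and 52.0% ± 8.48 in cerebral vGluT2+ IPs. *Gria2* made up 21.3% ± 5.23 in cerebral vGluT2+ IPs and 15.01% ± 2.08 in cerebellar vGluT2+ IPs. The others were lower, with 13.3% ± 3.03 in cerebral Gad2+ IPs, 12.8% ± 2.83 in SST+ IPs, 12.3% ± 1.65 in cerebellar Gad2+ IPs and 10.1% ± 1.83 in PV+ IPs. Its share was thus below the one of *Gria1* in all 6 cell types on this scale. In cerebellar Gad2+ IPs, *Gria1* (33.1% ± 3.87), *Gria4* (30.2% ± 2.90) and *Gria3* (24.4% ± 2.61) were closest to each other, and in cerebellar vGluT2+ IPs *Gria4* led with 58.6% ± 4.35 while *Gria3* had 5.12% ± 1.34. *Gria1* had the largest share in 5 of 6 cell types with exon lengths, in 4 with the longest transcript as the length, and in 3 without division by length, where *Gria2* led in cerebral vGluT2+ IPs and *Gria3* in cerebellar Gad2+ IPs. The ranking within a cell type therefore depends on the length used. Shares were not tested.

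The position on which calcium permeability turns lies in the pore loop of each subunit, and its coding stretch is printed since 4 such similar genes could be confused in counting. The 30 bases are coding sequence of GENCODE M21 transcripts (GRCm38), written 5′ to 3′ on the gene's strand. The capitals mark the codon of the Q/R site, at chr11:57243094-57243096 in exon 11 of 16 for *Gria1*, chr3:80706911-80706913 in exon 11 of 16 for *Gria2*, chrX:41610265-41610267 in exon 11 of 16 for *Gria3* and chr9:4464137-4464139 in exon 12 of 17 for *Gria4*.
Gria1: ctgggggccttcatgCAGcaaggatgtgac
Gria2: ttgggtgcctttatgCAGcaaggatgcgat
Gria3: ttgggtgcttttatgCAGcaaggatgtgat
Gria4: ctgggtgcctttatgCAAcaaggatgtgac
From the *Gria2* stretch, *Gria3* differed at 2 of 30 bases, *Gria4* at 4 and *Gria1* at 5. In mRNA the *Gria2* codon is edited by the enzyme encoded by *Adarb1*, which counts per gene do not show.

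Most auxiliary subunit genes had higher means in cerebral than in cerebellar IPs. *Gsg1l*, *Cacng3* and *Cacng8* had all 4 cerebral means above both cerebellar ones, and *Cnih2* all but the one of PV+ IPs, while *Cacng2* and *Cacng7* were highest in cerebellar Gad2+ IPs.

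*Gsg1l* had 35.4 ± 4.62 CPM per kb in cerebral vGluT2+ IPs, 30.4 ± 3.18 in cerebral Gad2+ IPs, 21.1 ± 3.14 in SST+ IPs, 17.8 ± 1.99 in PV+ IPs, 8.76 ± 1.55 in cerebellar vGluT2+ IPs and 2.57 ± 0.413 in cerebellar Gad2+ IPs. In CPM the cerebellar Gad2+ IPs ran from 7.94 to 12.1 CPM with a median of 9.75. The first and second groups overlapped, as did SST+ IPs and PV+ IPs, and the other 3 steps had no overlap. It was the only one of the 10 genes with its lowest control level in cerebellar Gad2+ IPs. They differed from cerebral Gad2+ IPs by −3.63 (SE 0.135, adjusted p = 1.61e-21) on the log2 scale by edgeR, lower in 6 of 6 libraries. In turn cerebellar vGluT2+ IPs exceeded them by 1.81 (SE 0.131, adjusted p = 6.12e-14) by edgeR, in 5 of 5 libraries.

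*Cacng2* had 71.9 ± 11.2 CPM per kb in cerebellar Gad2+ IPs, 29.0 ± 3.36 in PV+ IPs, 22.7 ± 2.65 in SST+ IPs, 21.03 ± 5.89 in cerebral Gad2+ IPs, 20.1 ± 2.73 in cerebellar vGluT2+ IPs and 15.2 ± 1.496 in cerebral vGluT2+ IPs. The cerebellar Gad2+ IPs, at 319 to 494 CPM with a median of 380.5, lay above all others. The remaining neighbours overlapped, with 90.6 to 127 CPM in cerebellar vGluT2+ IPs and 70.2 to 93.2 CPM with a median of 85.6 in cerebral vGluT2+ IPs. *Cacng7*, a TARP with weak effects on trafficking, had 124 ± 25.1 CPM per kb in cerebellar Gad2+ IPs, 89.9 ± 11.5 in PV+ IPs, 74.2 ± 9.86 in SST+ IPs, 62.7 ± 12.2 in cerebral Gad2+ IPs, 48.6 ± 13.1 in cerebellar vGluT2+ IPs and 45.6 ± 6.78 in cerebral vGluT2+ IPs. Every neighbour in that order overlapped the next, and the 6 cerebellar Gad2+ IPs, at 239 to 403 CPM with a median of 294, were above the 94.4 to 138 CPM of the cerebral vGluT2+ IPs without overlap. *Cacng2* and *Cacng7* were both higher in PV+ IPs than in cerebral vGluT2+ IPs, by 0.99 (SE 0.146) and 1.05 (SE 0.153) on the log2 scale, with adjusted p of 6.51e-07 and 5.75e-07 in edgeR's quasi-likelihood test, in 6 of 6 libraries each.

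*Cacng3*, a TARP of forebrain principal neurons, had 60.4 ± 5.56 CPM per kb in cerebral vGluT2+ IPs, 35.4 ± 4.55 in cerebral Gad2+ IPs, 25.9 ± 3.51 in SST+ IPs, 15.4 ± 2.02 in PV+ IPs, 12.3 ± 1.37 in cerebellar Gad2+ IPs and 0.909 ± 0.720 in cerebellar vGluT2+ IPs. The cerebral vGluT2+ IPs ran from 150.4 to 195 CPM with a median of 166, while the cerebellar vGluT2+ IPs held 1.64, 2.43, 1.56, 1.01 and 5.98. Only cerebral Gad2+ IPs and SST+ IPs, and PV+ IPs and cerebellar Gad2+ IPs, overlapped among neighbours. *Cacng8*, a TARP abundant in the hippocampus, followed the same order, with 28.1 ± 4.52, 24.2 ± 3.82, 15.7 ± 5.74, 13.3 ± 2.69, 8.02 ± 1.37 and 1.42 ± 0.816 CPM per kb. Its cerebellar vGluT2+ IPs held 3.23, 2.28, 2.38, 2.05 and 6.65 CPM and stood below the 15.7 to 23.7 CPM of the cerebellar Gad2+ IPs, and all other neighbours overlapped. Between vGluT2+ IPs of cerebellum and cerebrum, *Cacng3* differed by −6.01 (SE 0.286, adjusted p = 8.31e-19) and *Cacng8* by −4.28 (SE 0.275, adjusted p = 1.87e-15) on the log2 scale in edgeR's quasi-likelihood test, lower in 5 of 5 libraries for both. In both genes, control replicate 5 of the cerebellar vGluT2+ IPs was the highest of its group. It also held the most of the vGluT2 list (*Slc17a6*, *Tcf7l2*, *Prkcd*, 3 of 3 genes), with 41.8, 79.9, 41.2, 45.5 and 231 CPM in replicates 1 to 5. The SST list (*Sst*, *Npy*, *Chodl*, 3 of 3 genes) was highest in it too, with 2.22, 10.3, 3.77, 0.796 and 65.0 CPM. The part of these markers in its levels was not tested.

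*Cnih2* had 127 ± 33.6 CPM per kb in cerebral vGluT2+ IPs, 104 ± 22.5 in cerebral Gad2+ IPs, 61.2 ± 19.1 in SST+ IPs, 40.0 ± 11.3 in cerebellar Gad2+ IPs, 34.7 ± 10.8 in PV+ IPs and 19.6 ± 8.20 in cerebellar vGluT2+ IPs. It ran from 134 to 259 CPM in cerebral vGluT2+ IPs and held 46.1, 21.9, 19.0, 19.9 and 27.5 CPM in cerebellar vGluT2+ IPs. Each neighbour in the order overlapped the next. Of the summed CPM per kb of the 4 TARP genes, *Cacng7* had the largest share in 5 of 6 cell types, from 43.5% ± 4.84 (SD) in cerebral Gad2+ IPs to 67.8% ± 4.30 in cerebellar vGluT2+ IPs. In cerebral vGluT2+ IPs *Cacng3* led at 40.5% ± 1.76, against 30.4% ± 2.31 for *Cacng7*. This ranking too depends on length, as without division by it *Cacng2* led in cerebellar Gad2+ IPs, at 396 CPM against 302.5 for *Cacng7*.

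Tests between control cell types, fitted in 1 edgeR model over the 6 groups, called 5 to 9 of the 10 genes wherever excitatory and inhibitory IPs or the 2 regions were compared. They called fewest, 2, between PV+ IPs and SST+ IPs.

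Between PV+ IPs and SST+ IPs 2 genes passed, *Cacng3* and *Cnih2*, both lower in PV+ IPs, at −0.76 (SE 0.218, adjusted p = 0.0153) with no overlap and −0.83 (SE 0.235, adjusted p = 0.0132) with 5 of 6 libraries below every SST+ library by edgeR. Between these IPs 8.5% of all genes tested were higher and 6.24% lower. Without control PV+ replicate 6 the count was 3, and without SST+ replicate 1 it was 1. Against cerebral Gad2+ IPs, PV+ IPs had 4 genes higher (*Gria3*, *Gria4*, *Cacng2*, *Cacng7*) and 4 lower (*Gsg1l*, *Cacng3*, *Cacng8*, *Cnih2*), with 25.3% of all genes tested higher and 28.1% lower. Against cerebral vGluT2+ IPs they had 3 higher (*Gria4*, *Cacng2*, *Cacng7*) and 5 lower (*Gria2*, *Gsg1l*, *Cacng3*, *Cacng8*, *Cnih2*), beside 28.6% and 30.2% of all genes.

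In SST+ IPs, 1 gene was higher (*Gria3*, 0.70) and 3 lower (*Gsg1l*, −0.49; *Cacng8*, −0.59; *Cnih2*, −0.73) than in cerebral Gad2+ IPs, while 25.2% of all genes tested were higher and 28.2% lower. With library size alone the calls of *Gsg1l*, *Cacng8* and *Cnih2* were lost (adjusted p = 0.0503, 0.145 and 0.0558 in edgeR) and *Gria4* and *Cacng7* were called higher. Without SST+ replicate 6, 2 genes were called. Against cerebral vGluT2+ IPs, SST+ IPs had 4 higher (*Gria1*, *Gria4*, *Cacng2*, *Cacng7*) and 4 lower (*Gsg1l*, *Cacng3*, *Cacng8*, *Cnih2*), beside 27.4% and 29.2% of all genes. Cerebral Gad2+ IPs had 4 higher (*Gria1*, *Gria4*, *Cacng2*, *Cacng7*) and 1 lower (*Cacng3*, −0.73) than cerebral vGluT2+ IPs, beside 16.7% and 13.4% of all genes.

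Cerebellar vGluT2+ IPs had 1 gene higher, *Gsg1l*, and 8 lower than cerebellar Gad2+ IPs, with 32.9% of all genes tested higher and 25.8% lower. *Gria4* missed the threshold there, at −0.34 (SE 0.167, adjusted p = 0.0774) in edgeR with 4 of 5 libraries below every Gad2+ library, and passed in DESeq2 (adjusted p = 0.0236). Between regions, cerebellar Gad2+ IPs had 4 higher (*Gria3*, *Gria4*, *Cacng2*, *Cacng7*) and 5 lower (*Gria1*, *Gsg1l*, *Cacng3*, *Cacng8*, *Cnih2*) than cerebral Gad2+ IPs, beside 24.6% and 30.4% of all genes. Cerebellar vGluT2+ IPs had 2 higher (*Gria4*, *Cacng2*) and 7 lower than cerebral vGluT2+ IPs, beside 33.8% and 29.8% of all genes. The call of *Cacng2* (0.42) was lost in DESeq2 (adjusted p = 0.0527). Cerebrum and cerebellum of these lines came from the same mice, and with the mouse as a block both region comparisons called 9 genes as well. Under this block 7428 of all 14368 genes tested were called for Gad2+ IPs and 9070 of 14276 for vGluT2+ IPs. The median log2 difference of the 10 genes was −1.55 between the cerebellar IPs, −0.48 between the Gad2+ and −2.15 between the vGluT2+ IPs of the 2 regions, against 0.083, −0.050 and 0.061 for all genes tested.

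Set against total RNA, the pore subunit genes were enriched in the cerebral IPs and the cornichon gene was depleted. *Gria1*, *Gria2*, *Gria3* and *Gria4* were higher in all 4 kinds of cerebral IP than in cerebral total RNA, and *Cnih2* was lower in all 4. With the mouse as a block, in mice with both preparations, the calls of *Cnih2* in cerebral Gad2+ IPs and cerebral vGluT2+ IPs and of *Gria1* and *Gria4* in cerebral vGluT2+ IPs were lost, as were those of *Gria3*, *Gria4*, *Cacng2* and *Gsg1l* in cerebellar vGluT2+ IPs. Among cerebellar IPs, cerebellar Gad2+ IPs were enriched in *Gria2* and *Gria3* while cerebellar vGluT2+ IPs held less than total RNA of 8 of the 10 genes. Total RNA pools lines and both genotypes, with 18 cerebral libraries of the Gad2, PV and vGluT2 lines, 25 with the SST line for the SST+ IPs, and 14 cerebellar ones.

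In cerebral total RNA, CPM per kb was 44.9 ± 6.77 for *Gria1*, 7.77 ± 4.51 for *Gria2*, 5.04 ± 3.47 for *Gria3* and 6.16 ± 2.76 for *Gria4* (SD, n = 25). For the auxiliary genes it was 158 ± 50.03 for *Cnih2*, 96.2 ± 25.1 for *Cacng7*, 34.0 ± 5.31 for *Cacng3*, 19.98 ± 3.39 for *Gsg1l*, 19.4 ± 4.11 for *Cacng8* and 15.5 ± 3.91 for *Cacng2*. In cerebellar total RNA the order was *Cacng7* at 153.7 ± 36.7 CPM per kb, *Gria1* at 74.7 ± 10.5, *Gria4* at 40.7 ± 14.8, *Cnih2* at 36.01 ± 10.8 and *Cacng2* at 28.7 ± 7.56 (SD, n = 14). Below these came *Gsg1l* at 5.58 ± 0.784, *Gria3* at 5.56 ± 3.54, *Gria2* at 4.77 ± 2.46, *Cacng3* at 4.13 ± 0.678 and *Cacng8* at 3.59 ± 0.915, where each spread overlapped the next. This order pools both genotypes. In the vGluT2 line *Gria4* and *Cnih2* had means of 54.8 and 27.8 CPM per kb in control but 24.2 and 43.6 in HD. *Gria3* had 9.80 in control and 1.71 in HD there.

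By edgeR's quasi-likelihood test, cerebral Gad2+ IPs had 6 genes higher and 2 lower than total RNA, where 30.9% of all genes tested were higher and 32.7% lower. Their log2 ratios were 0.81 for *Gria1*, 0.81 for *Gria2*, 1.02 for *Gria3* and 0.99 for *Gria4*, with 0.38 for *Gsg1l* and 0.38 for *Cacng8*, and the lower genes were *Cnih2* (−0.57) and *Cacng7* (−0.51). Both of these calls were lost with the mouse as a block (adjusted p = 0.611 and 0.0530 by edgeR, log2 ratios −0.16 and −0.48). Against total RNA of the Gad2 line alone 4 genes were called (*Gria1*, *Gsg1l*, *Cacng8*, *Cacng7*), beside 6903 of 14723 genes tested. *Gria2*, *Gria3*, *Gria4* and *Cnih2* were at 0.51, 0.62, 0.67 and −0.39 there (adjusted p = 0.277, 0.228, 0.0765 and 0.0794 by edgeR). In PV+ IPs 5 genes were higher and 4 lower, beside 35.7% and 37.5% of all genes, with log2 ratios of 0.76 for *Gria1*, 0.73 for *Gria2*, 2.03 for *Gria3* and 2.03 for *Gria4*, 0.96 for *Cacng2*, −2.11 for *Cnih2* and −1.11 for *Cacng3*. The call of *Gsg1l* in PV+ IPs (−0.19) was lost with library size alone, against PV line total RNA alone and with the mouse as a block. In SST+ IPs 5 were higher and 2 lower, beside 33.9% and 35.7%, with 0.92 for *Gria1*, 1.23 for *Gria2*, 2.14 for *Gria3* and 1.54 for *Gria4*, 0.59 for *Cacng2*, −1.12 for *Cnih2* and −0.32 for *Cacng3*. With the mouse as a block *Cacng7* and *Cacng8* were called lower there too, at −0.33 and −0.44 (adjusted p = 0.00764 and 0.0238 by edgeR).

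In cerebral vGluT2+ IPs 7 genes were higher and 2 lower, beside 30% and 33.6% of all genes tested, with log2 ratios of 0.28 for *Gria1*, 1.29 for *Gria2*, 1.51 for *Gria3* and 0.60 for *Gria4*. The TARP genes split there, with *Cacng3* at 0.65 and *Cacng8* at 0.49 but *Cacng7* at −1.09, and *Gsg1l* was at 0.63. With the mouse as a block the calls of *Gria1*, *Gria4* and *Cnih2* were lost there (adjusted p = 0.237, 0.0522 and 0.0509 by edgeR), and *Cacng2* was called lower. Against total RNA of the vGluT2 line alone *Gria1* was lost too (adjusted p = 0.0886 by edgeR). Cerebellar Gad2+ IPs had 5 genes higher and 3 lower, beside 34.7% and 32.6%, with 2.84 for *Gria3*, 1.99 for *Gria2*, 1.61 for *Cacng3*, 1.29 for *Cacng2* and 1.22 for *Cacng8*. Lower there were *Gsg1l* (−1.06), *Gria1* (−0.58) and *Cacng7* (−0.26). Cerebellar vGluT2+ IPs had 2 higher, *Gria2* (0.76) and *Gsg1l* (0.33), and 8 lower, beside 32.3% and 36%. *Gria1* at −2.74 and *Cacng3* at −2.67 were the farthest below total RNA. With the mouse as a block 6 genes were called there, beside 7896 of all 14329 genes tested. Calls of *Gria3*, *Gria4*, *Gsg1l* and *Cacng2* were lost (adjusted p = 0.521, 0.377, 0.0793 and 0.0918 by edgeR), the first pair also against total RNA of that line alone (0.0706 and 0.0935). The median log2 ratio of the 10 genes was 0.38 in cerebral Gad2+ IPs, 0.37 in PV+ IPs, 0.37 in SST+ IPs, 0.54 in cerebral vGluT2+ IPs, 0.71 in cerebellar Gad2+ IPs and −0.97 in cerebellar vGluT2+ IPs. The median of all genes tested lay between −0.019 and 0.044.

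Other genes of AMPA receptor biology were 9 further auxiliary subunit genes, 7 genes of receptor assembly and export, 11 of scaffolds and trafficking, 10 of secreted and synaptic organisers and 3 of RNA editing, all tested in each comparison. Their counts stand beside shares of all genes tested, over the 6 kinds of IP, of 30% to 35.7% higher and 32.6% to 37.5% lower than total RNA. Of the auxiliary subunit genes, 6 were higher and 1 lower than total RNA in cerebral Gad2+ IPs, 1 and 4 in PV+ IPs, 2 and 4 in SST+ IPs, 3 and 3 in cerebral vGluT2+ IPs, 5 and 4 in cerebellar Gad2+ IPs and 2 and 6 in cerebellar vGluT2+ IPs. *Cnih3*, the cornichon closest to *Cnih2*, was lower in cerebral Gad2+ IPs (−1.21) and PV+ IPs (−1.24). *Cacng5*, the TARP closest to *Cacng7*, was lower in cerebellar Gad2+ IPs (−1.83) and cerebellar vGluT2+ IPs (−3.17), and *Cacng4* was higher in SST+ IPs (0.98) and lower in cerebral vGluT2+ IPs (−1.35) and cerebellar vGluT2+ IPs (−2.45). *Shisa6*, which traps receptors at synapses, was higher in cerebellar Gad2+ IPs (1.78) and SST+ IPs (0.89), and *Shisa8* was higher in cerebral Gad2+ IPs (0.80) and lower in cerebral vGluT2+ IPs (−1.42). *Prrt1* was lower in PV+ IPs (−0.74).

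Of the assembly and export genes, 2 were higher and 0 lower in cerebral Gad2+ IPs, 3 and 2 in PV+ IPs, 2 and 3 in SST+ IPs, 3 and 0 in cerebral vGluT2+ IPs, 4 and 0 in cerebellar Gad2+ IPs and 3 and 1 in cerebellar vGluT2+ IPs. *Sacm1l*, a phosphoinositide phosphatase found with the receptors, was higher in all 6, from 0.64 in cerebral vGluT2+ IPs to 2.12 in PV+ IPs. *Frrs1l*, which is needed for receptor biogenesis, was at 1.4 in SST+ IPs, 0.99 in cerebral vGluT2+ IPs and 0.97 in PV+ IPs. In cerebral Gad2+ IPs it was at 0.43 and not called (adjusted p = 0.161 by edgeR). *Porcn* was at 0.72 in cerebellar Gad2+ IPs and *Abhd12* at −0.42 in cerebellar vGluT2+ IPs. Of the scaffold genes, 8 were higher and 2 lower in cerebral Gad2+ IPs, 7 and 1 in PV+ IPs, 6 and 1 in SST+ IPs, 5 and 2 in cerebral vGluT2+ IPs, 7 and 2 in cerebellar Gad2+ IPs and 5 and 3 in cerebellar vGluT2+ IPs. *Grip1*, a PDZ protein that binds GluA2, was at 1.96 in cerebellar Gad2+ IPs, 1.55 in PV+ IPs, 1.38 in SST+ IPs and 1.25 in cerebral Gad2+ IPs. *Akap5*, which anchors protein kinase A near the receptors, was at 2.15 in cerebral Gad2+ IPs, 1.60 in cerebellar Gad2+ IPs, 1.53 in cerebral vGluT2+ IPs and 1.10 in SST+ IPs. *Grip2* was at 1.15 in PV+ IPs, −0.76 in cerebral vGluT2+ IPs and −1.29 in cerebellar vGluT2+ IPs, and *Gripap1* at 0.94 in cerebellar vGluT2+ IPs.

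Organisers, which cluster receptors from the synaptic cleft, were 2 higher and 6 lower in cerebral Gad2+ IPs, 1 and 6 in PV+ IPs and 1 and 5 in SST+ IPs. They were 8 and 0 in cerebral vGluT2+ IPs, 5 and 4 in cerebellar Gad2+ IPs and 6 and 2 in cerebellar vGluT2+ IPs. *Nrn1* was at −3.58 in cerebral Gad2+ IPs, −3.05 in cerebellar Gad2+ IPs and −1.17 in SST+ IPs. *Nptx1* was at −1.52 in cerebral Gad2+ IPs, and *Nptx2*, a pentraxin that recruits receptors to interneurons, at −2.19 in PV+ IPs and −1.48 in SST+ IPs. *Nptxr* was at −1.30 in PV+ IPs, *Olfm1* at 1.11 and *Olfm3* at 0.92 in cerebral vGluT2+ IPs. *Lrrtm4* was at 1.5 in cerebellar Gad2+ IPs, and *Olfm2* and *Olfm3* at −1.96 and 1.42 in cerebellar vGluT2+ IPs. Of the 3 editing genes, 2 were higher and 0 lower in cerebral Gad2+ IPs, PV+ IPs, SST+ IPs and cerebellar Gad2+ IPs, 2 and 1 in cerebellar vGluT2+ IPs and 0 and 0 in cerebral vGluT2+ IPs, where edgeR called 0 of 3. *Adarb2*, which encodes an editing-inactive relative of the *Adarb1* enzyme, was at 2.30 in cerebellar Gad2+ IPs, 1.64 in cerebral Gad2+ IPs, 1.18 in PV+ IPs, 0.88 in SST+ IPs, −0.028 in cerebral vGluT2+ IPs and −1.26 in cerebellar vGluT2+ IPs. *Adarb1* was at 1.03 in PV+ IPs, 0.54 in SST+ IPs, 0.23 in cerebellar Gad2+ IPs and 0.074 in cerebral vGluT2+ IPs, and *Adar* at 0.25 in cerebral Gad2+ IPs and 0.43 in cerebellar vGluT2+ IPs.

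With the HD allele, *Gsg1l* was the only one of the 10 genes without overlap of HD and control in cerebral Gad2+ IPs. In cerebral vGluT2+ IPs the only such gene was *Gria1*. For no HD comparison is the share of all genes without overlap given here, so a lack of overlap is a description only. For *Gsg1l*, all 6 HD cerebral Gad2+ IPs lay below all 6 controls, and its medians were also lower in HD in PV+ IPs, SST+ IPs, cerebral vGluT2+ IPs and cerebellar vGluT2+ IPs. Its adjusted p in edgeR missed the threshold in each of the 6 IP comparisons.

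In cerebral Gad2+ IPs, *Gsg1l* ran from 103 to 139 CPM with a median of 118 in controls and from 76.2 to 96.2 CPM with a median of 92.8 in HD. The groups did not overlap, and the log2 difference of −0.44 (SE 0.0880) had an adjusted p of 0.139 in edgeR and 0.00107 in DESeq2, lower in 6 of 6 HD IPs. Over all other settings besides single libraries left out it ran from 0.00107 to 0.289. EdgeR called 0 of the 10 genes (1 at an unadjusted p under 0.05, then written as unadjusted) and DESeq2 called 1, *Gsg1l*, where 0.0279% and 0.523% of all genes tested were called. The unadjusted cut in edgeR held 1313 of all 14342 genes. *Gria3* ran from 68.9 to 185 CPM with a median of 160.3 in controls and 46.0 to 160.3 CPM with a median of 83.4 in HD, and the groups overlapped. *Gria2* ran from 138 to 362 CPM with a median of 306 in controls and 101 to 332 CPM with a median of 182 in HD, with overlap as well. Their log2 differences were −0.69 (SE 0.348) and −0.51 (SE 0.300), and −0.35 and −0.17 with length balance as a covariate. *Gsg1l* was at −0.48 with that covariate. The median log2 difference of the 10 genes was −0.30 in cerebral Gad2+ IPs, −0.092 in PV+ IPs, −0.15 in SST+ IPs and −0.21 in cerebral vGluT2+ IPs, and that of all genes tested −0.0062, 0.0023, 0.0081 and −0.018. With length balance as a covariate the medians of the 10 genes were −0.146, −0.068, −0.163 and −0.208 in the same order. The striatal projection list (*Drd1*, *Drd2*, *Adora2a*, *Penk*, *Ppp1r1b*, 5 of 5 genes, none at 0, *Ppp1r1b* most abundant) summed to 4025, 4520, 4623, 5404, 4452 and 5509 CPM in control replicates 1 to 6 and 2170, 2226, 3636, 4038, 3080 and 2919 CPM in HD replicates 1 to 6. Of these genes, DESeq2 called 3 lower and edgeR 0 (5 unadjusted). The part of striatal neuron mRNA in the *Gsg1l* difference was not tested.

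In PV+ IPs, *Gsg1l* ran from 62.7 to 82.0 CPM with a median of 66.5 in controls and was 55.4, 65.2, 61.5, 58.4 and 54.5 CPM in HD, the last being a re-sequenced library. Of the HD values, 4 lay below the lowest control, and the log2 difference was −0.26 (SE 0.0824) with an adjusted p of 0.803 in edgeR, below the control median in 5 of 5 HD IPs. EdgeR called 0 of the 10 genes (1 unadjusted) and DESeq2 0, where 0.034% and 0.287% of all genes were called. The unadjusted cut held 630 of all 14713 genes. The other 9 genes differed by −0.15 (*Cacng3*) to 0.11 (*Cacng8*), and all overlapped. The striatal projection list summed to 146 to 253 CPM in control and 102 to 200 in HD, with overlap. Markers of Purkinje cells (*Pcp2*, *Calb1*, *Car8*, *Foxp2*) summed to 92.1 to 607 CPM in control and 67.3 to 1449 in HD, where the median was 99.3. Those of granule cells (*Gabra6*, *Etv1*, *Neurod1*, *Cbln3*) summed to 44.8 to 192 and 25.3 to 421 CPM, with an HD median of 47.8. The part of these markers in the *Gsg1l* values was not tested. In SST+ IPs, *Gsg1l* was 99.0, 73.1, 81.2, 90.6 and 69.2 CPM in controls and 77.2, 75.2, 56.6 and 98.8 CPM in HD, which overlapped. There, edgeR called 0 of the 10 genes (0 unadjusted) and DESeq2 0, where 0% and 0.0136% of all genes were called. The log2 differences ran from −0.39 for *Gria3* to 0.27 for *Cnih2*, whose HD replicate 4 stood at 186 CPM beside 68.3 to 77.6 in the other 3. That library held the least *Gria3* of the HD IPs, and its length balance was −0.83 against 0.13 to 0.17. Of the 5 controls, 3 carry another mouse label prefix than the HD mice, of unstated meaning. Without them *Gsg1l* was at −0.15, and edgeR called 0 of the 10 genes (0 unadjusted) and 0 of all genes.

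In cerebral vGluT2+ IPs, *Gria1* ran from 353 to 445 CPM with a median of 371 in controls and from 306 to 339.9 CPM with a median of 317 in HD, and the groups did not overlap. *Gria3* ran from 117 to 253 CPM with a median of 224 in controls and 76.2 to 175 CPM with a median of 144 in HD. *Gsg1l* ran from 112 to 166 CPM with a median of 139 in controls and 110.1 to 145 CPM with a median of 115 in HD, and both genes overlapped. By edgeR the log2 differences were −0.25 (SE 0.0721, adjusted p = 0.636) for *Gria1*, lower in 6 of 6 HD IPs, −0.60 (SE 0.214, adjusted p = 0.673) for *Gria3* and −0.22 (SE 0.101, adjusted p = 0.677) for *Gsg1l*, each below the control median in 5 or 6 of 6 HD IPs. EdgeR called 0 of the 10 genes (3 unadjusted) and DESeq2 0, where 0.00697% and 0.216% of all genes were called. The unadjusted cut held 1045 of all 14354 genes. *Gria2* differed by −0.57, and by −0.025 with length balance as a covariate, and *Gria3* by −0.26 with it. The striatal projection list (5 of 5 genes, none at 0, *Ppp1r1b* most abundant) summed to 283 to 438 CPM in control and 206 to 259 CPM in HD, also without overlap. Of its genes DESeq2 called 1 lower and edgeR 0 (3 unadjusted), and its part in the *Gria1* and *Gsg1l* values was not tested.

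**Figure D2:**
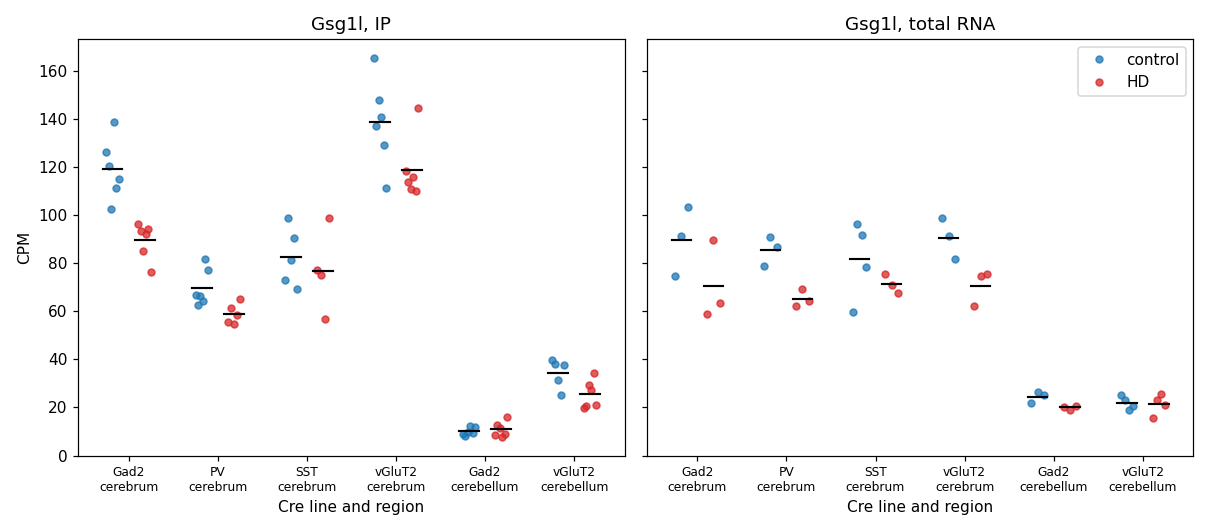
*Gsg1l* in CPM (linear axes from 0) in IPs and in total RNA, by Cre line and region; each point is 1 library, blue for control and red for HD, and black bars are means. The 6 HD cerebral Gad2+ IPs lie between 76.2 and 96.2 CPM, below the controls at 103 to 139 CPM.

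Of all IPs, cerebellar Gad2+ IPs showed the smallest HD differences, from −0.10 for *Cacng2* to 0.10 for *Gsg1l*, and every gene overlapped between HD and control. EdgeR called 0 of the 10 genes (0 unadjusted) and DESeq2 0, where 0.0142% and 0.156% of all genes were called. *Gria3*, whose control level was highest in these IPs among the 6 cell types, ran from 261 to 402 CPM with a median of 359.6 in controls and 198 to 412 CPM with a median of 349 in HD. *Gria2* ran from 219 to 341 CPM with a median of 296 in controls and 117 to 328 CPM with a median of 301 in HD. The low HD value was replicate 4, whose length balance of −0.83 was also the lowest of its group.

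In cerebellar vGluT2+ IPs, where the HD comparison called the most genes of any IP, *Cacng8* was higher and *Gsg1l* and *Cacng3* lower in most HD libraries without passing the test. *Cacng8* was 3.23, 2.28, 2.38, 2.05 and 6.65 CPM in controls and ran from 4.42 to 8.22 CPM with a median of 5.77 in HD. Of the controls, 4 lay below all HD values and replicate 5 lay among them. *Gsg1l* was 39.6, 38.0, 31.4, 25.0 and 37.7 CPM in controls and ran from 19.9 to 34.5 CPM with a median of 24.2 in HD. *Cacng3* was 1.64, 2.43, 1.56, 1.01 and 5.98 CPM in controls and ran from 0.689 to 1.99 CPM with a median of 1.53 in HD, and both genes overlapped. By edgeR the log2 differences were 0.86 (SE 0.314, adjusted p = 0.206) for *Cacng8*, above the control median in 6 of 6 HD IPs, −0.41 (SE 0.167, adjusted p = 0.257) for *Gsg1l*, and −0.81 (SE 0.441, adjusted p = 0.406) for *Cacng3*, below the control median in 6 and 4 of 6.

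EdgeR called 0 of the 10 genes in cerebellar vGluT2+ IPs (2 unadjusted) and DESeq2 0, where 2.11% and 4.93% of all genes tested were called. The unadjusted cut held 2090 of all 13487 genes. Without control replicate 5, *Cacng8* differed by 1.32 on the log2 scale and was called by edgeR (adjusted p = 0.0105), and *Cacng3* came to −0.16. That refit drops the control that lay among the HD values of *Cacng8*, so its call is no support for a difference. It called 230 of all 13429 genes, and *Cacng8* is among the genes with few counts here. The granule cell list (*Gabra6*, *Etv1*, *Neurod1*, *Cbln3*, 4 of 4 genes, none at 0, *Cbln3* most abundant) summed to 8684, 8568, 8131, 8158 and 6161 CPM in control replicates 1 to 5 and 5313, 4679, 5640, 4286, 4933 and 3882 CPM in HD replicates 1 to 6. Of the 4 genes edgeR called 2 lower. The striatal projection list also separated, at 73.6 to 109 CPM in control and 50.5 to 68.6 in HD. The part of these markers in the values of *Cacng8* and *Gsg1l* was not tested.

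In total RNA of the cerebrum *Gsg1l* was below control in HD, and the pore subunit genes had no common direction. In the Gad2, PV and vGluT2 lines this RNA came from mice that also gave the IPs. The paper took both from the same homogenates, so the total RNA does not repeat the IPs independently. *Gsg1l* was 74.8, 91.3 and 103 CPM in control and 58.9, 63.4 and 89.5 in HD mice of the Gad2 line, 87.0, 78.9 and 91.1 against 62.1, 69.2 and 64.2 in the PV line, and 99.0, 91.3 and 81.8 against 62.0, 74.9 and 75.3 in the vGluT2 line. It was 59.7, 96.5, 91.8 and 78.5 against 75.7, 71.1 and 67.7 CPM in the SST line, which was not part of the fit. Controls and HD did not overlap in the PV and vGluT2 lines, with 3 libraries against 3 in each, and overlapped in the Gad2 and SST lines. In the Gad2 line HD was lower in 3 of 3 same-numbered pairs. Labels pair no mice, and these pairs were read from the same counts, so they are no separate test. Over the 3 lines the log2 difference was −0.32 (SE 0.0681), with an adjusted p of 0.0719 in edgeR and 4.93e-04 in DESeq2, and 9 of 9 HD libraries lay below the control median of their line.

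Summed levels of striatal, PV and vGluT2 neuron markers were also lower in HD in part of the lines. The striatal projection list (5 of 5 genes, none at 0, *Ppp1r1b* most abundant) summed to 564, 909 and 1141 CPM in control and 332, 530.4 and 877 in HD mice of the Gad2 line, and 968, 853 and 1693 against 946, 559.9 and 694 in the PV line, with overlap in both. In the vGluT2 line it was 1257, 1152 and 888 against 448, 634 and 509 CPM, without overlap. DESeq2 called 3 of the 5 genes lower and edgeR 0 (4 unadjusted). The PV list (*Pvalb*, *Syt2*, *Kcnc2*, 3 of 3 genes, none at 0, *Syt2* most abundant) summed to 365 to 462 CPM in control against 329.8 to 402 in HD in the Gad2 line and 419 to 440.4 against 261 to 430.4 in the vGluT2 line, with overlap, and 356 to 401 against 286 to 328 in the PV line, without. EdgeR called 0 of its genes (1 unadjusted) and DESeq2 0. The vGluT2 list (3 of 3 genes, none at 0, *Prkcd* most abundant) separated in the vGluT2 line, at 146 to 181 against 135 to 138 CPM, and overlapped in the others, with 0 genes called by edgeR (1 unadjusted) and 1 lower by DESeq2. A list whose values are not reported here was also lower in HD in the Gad2 line, without overlap. The part of these markers in the *Gsg1l* difference was not tested.

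In cerebral total RNA edgeR called 0 of the 10 genes (2 unadjusted) and DESeq2 1, *Gsg1l*, where 0.141% and 0.801% of all genes tested were called. The unadjusted cut held 984 of all 14871 genes. Without HD Gad2-line replicate 3, edgeR gave *Gsg1l* −0.36 with an adjusted p of 0.0232, and with length balance as a covariate −0.31 with 0.00463. These 2 settings also called more of all genes, 43 and 420 against 21 in the main fit. Refits leaving out 1 library each called 0 or 1 of the 10 genes. The other genes ran from −0.29 for *Cacng2* to 0.29 for *Gria2*. *Gria1* of the vGluT2 line was 194, 274 and 276 CPM in control and 307, 299.9 and 316 in HD total RNA, which did not overlap and had the opposite order to the IPs of that line.

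Total RNA of the cerebellum was the 1 preparation in which the 10 genes passed the HD test in number, and 24.5% of all genes tested passed there too by edgeR. *Gria2*, *Gria3*, *Gria4* and *Cacng2* were lower and *Cacng7* and *Cacng8* higher in HD. These 6 genes separated HD from control without overlap in the vGluT2 line and overlapped in the Gad2 line. So did *Cnih2*, which was not called over both lines. In the vGluT2 line alone edgeR called 7565 of all 14630 genes tested, and the share of all genes without overlap is not given here.

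*Gria3* was 101, 100.2, 75 and 109.7 CPM in control and 26.7, 14.2, 11.1 and 15.3 in HD mice of the vGluT2 line, and 48.5, 85.2 and 46.5 (control) against 38.9, 26.1 and 68.4 in the Gad2 line. *Gria2* was 125, 123, 80.4 and 141 against 42.0, 36.5, 19.6 and 41.4 CPM in the vGluT2 line and 53.1, 99.9 and 66.0 against 77.4, 37.7 and 95.9 in the Gad2 line. *Gria4* was 401, 345, 309.9 and 327 against 144, 162, 134 and 169.6 CPM in the vGluT2 line and 234, 390.2 and 243 against 229.7, 168 and 336 in the Gad2 line. All 4 HD libraries of the vGluT2 line lay below all 4 controls for the 3 subunits. *Cacng7* was 301, 286, 297 and 238 against 492.7, 471, 441 and 412 CPM in the vGluT2 line and 381, 300.3 and 427 against 433, 499.6 and 275 in the Gad2 line. *Cacng8* was 5.94, 5.54, 8.06 and 6.81 against 8.78, 9.78, 11.6 and 10.8 CPM in the vGluT2 line and 7.60, 7.39 and 7.00 against 9.69, 12.4 and 6.44 in the Gad2 line. For these TARP genes the 4 HD libraries of the vGluT2 line lay above the 4 controls. *Cacng2* was 164, 162, 183 and 148 against 95.4, 96.1, 128 and 104 CPM in the vGluT2 line, lower in 4 of 4, and 194, 159 and 210.2 against 202, 222 and 143 in the Gad2 line, with overlap. *Cnih2* was 35.2, 39.0, 46.3 and 31.5 against 48.1, 73.2, 69.2 and 48.1 CPM in the vGluT2 line, higher in 4 of 4.

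Over both lines, edgeR's quasi-likelihood test called 6 of the 10 genes, 2 higher and 4 lower, and DESeq2 also 6, where 24.5% and 34.4% of all genes tested were called. *Gria3* fell by 1.70 on the log2 scale (SE 0.416, adjusted p = 0.0280 in edgeR), *Gria2* by 1.10 (SE 0.362, adjusted p = 0.0429) and *Gria4* by 0.85 (SE 0.228, adjusted p = 0.0305), below the control median of their line in 6 of 7, 5 of 7 and 6 of 7 HD libraries. *Cacng8* rose by 0.45 (SE 0.134, adjusted p = 0.0354) and *Cacng7* by 0.38 (SE 0.128, adjusted p = 0.0448) in edgeR, above all controls in 4 of 4 HD libraries of the vGluT2 line. *Cacng2* was at −0.43 (SE 0.143, adjusted p = 0.0437) in edgeR. In the vGluT2 line alone 7 genes were called, *Cnih2* among them at 0.52 (SE 0.167), beside 7565 of 14630 genes tested (adjusted p = 0.0234 for *Cnih2* in edgeR, higher in 4 of 4). In the Gad2 line alone edgeR called 0 of the 10 genes (0 unadjusted) and 0 of all genes. The median log2 difference of the 10 genes was −0.23 and that of all genes tested −0.0094.

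In these libraries the balance between long and short transcripts differed as well. Length balance is the median centred log2 CPM of 1984 genes with transcripts of at least 6 kb minus that of 2161 genes with transcripts of at most 2 kb. It was 0.70, 0.56, 0.29 and 0.69 in the 4 controls of the vGluT2 line and −0.39, −0.60, −0.83 and −0.32 in the 4 HD libraries, without overlap, against −0.17, 0.73 and −0.26 and −0.22, −0.69 and 0.67 in the Gad2 line. In the Gad2 line too, the control and the HD library with the highest balance (control replicate 2 and HD replicate 3) held the most *Gria2*, *Gria3* and *Gria4* and the least *Cacng7* and *Cnih2* of their group. The part of this balance in the HD difference was not tested. With length balance as a covariate edgeR called 0 of the 10 genes (85 of all genes), and *Gria3* came to −0.66, *Gria2* to −0.15 and *Cacng7* to 0.080. The covariate comes from the same counts, and in the vGluT2 line it cannot be told apart from genotype.

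**Figure D3:**
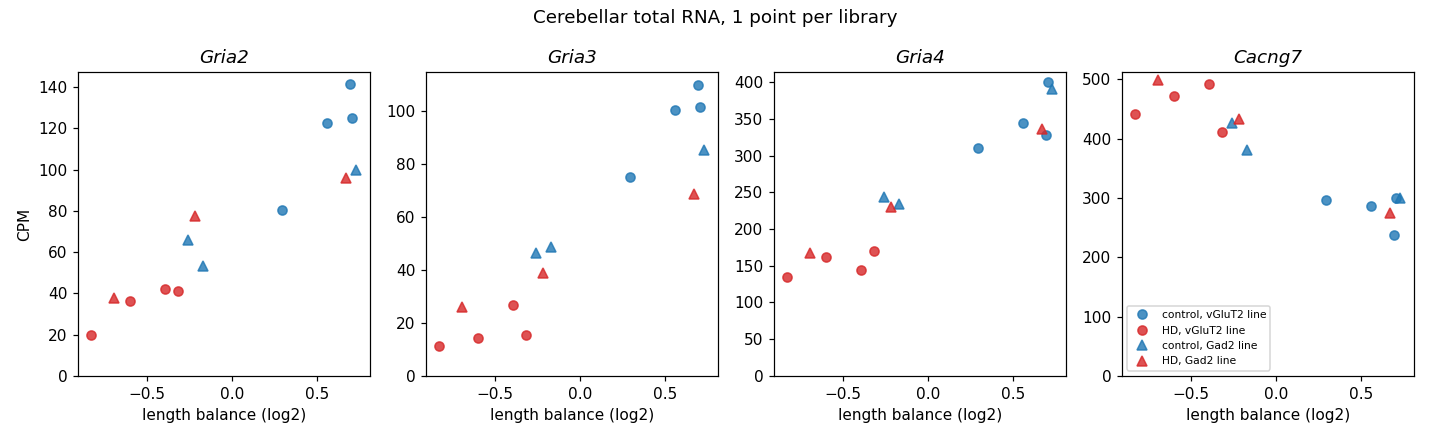
*Gria2*, *Gria3*, *Gria4* and *Cacng7* in CPM (vertical axes from 0) against length balance (log2) in the 14 cerebellar total RNA libraries; circles are the vGluT2 line, triangles the Gad2 line, blue control and red HD. The 4 HD circles lie at length balances of −0.83 to −0.32 and the 4 control circles at 0.29 to 0.70, while triangles of both colours lie on both sides.

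The count of 6 also rested on single libraries. It came to 0 of the 10 genes without control replicate 2 or HD replicate 2 of the Gad2 line, without any 1 of the 4 controls of the vGluT2 line, or without HD replicate 2, 3 or 4 of that line, by edgeR. It was 2 without HD replicate 1 of the vGluT2 line, 4 and 8 without HD replicates 1 and 3 of the Gad2 line, and 6 and 7 without control replicates 1 and 3 of that line. Calls over all genes moved with it, with 96 to 302 in the refits with 0, 1278 in that with 2, 2425 and 7408 in those with 4 and 8, and 5078 and 5282 in those with 6 and 7, against 3544 with every library. With library size alone the calls of *Cacng7* and *Cacng8* were lost (adjusted p = 0.102 and 0.0719 by edgeR, differences 0.30 and 0.38). Without a filter on low counts those of *Cacng2* and *Cacng7* were lost (adjusted p = 0.0524 and 0.0507 by edgeR, differences −0.42 and 0.38).

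Summed levels of cell type markers also differed in the vGluT2 line. The granule cell list (4 of 4 genes, none at 0, *Cbln3* most abundant, 1 called lower) summed to 4306, 3213, 3024 and 3070 CPM in control against 2023, 2419, 2006 and 2898 in HD. The cerebellar interneuron list (*Sorcs3*, *Lgi2*, *Grik3*, 3 of 3 genes, none at 0, *Lgi2* most abundant, 3 called lower) summed to 326, 253, 271 and 309 against 186, 156, 166 and 188 CPM. The microglia list (*Cx3cr1*, *P2ry12*, *Tmem119*, *Csf1r*, 4 of 4 genes, none at 0, *Csf1r* most abundant, 2 called higher) summed to 66.8, 61.9, 70.1 and 67.9 against 118, 102, 107 and 102 CPM. The Purkinje list (*Pcp2*, *Calb1*, *Car8*, *Foxp2*, 4 of 4 genes, none at 0, *Car8* most abundant, 2 called lower) summed to 2276, 2382, 2138 and 2491 against 1287, 1936, 1751 and 1933 CPM. The PV list (3 of 3 genes, none at 0, *Pvalb* most abundant) summed to 1447, 1383, 1807 and 1469 against 1972, 2200, 2676 and 2240 CPM, and the striatal projection list (5 of 5 genes, none at 0, *Ppp1r1b* most abundant, 1 called higher) to 307, 301, 364 and 297 against 464, 431, 484 and 403. None of these 6 lists overlapped between HD and control there, with the granule cell, interneuron and Purkinje lists lower in HD and the others higher. The GABAergic (*Gad1*, *Gad2*, *Slc32a1*), astrocyte and Bergmann glia (*Slc1a3* most abundant), oligodendrocyte precursor (*Pdgfra*, *Cspg4*), SST and vGluT2 lists overlapped there. *Slc17a7*, a vesicular glutamate transporter gene singled out after its values were seen, went the other way from the granule cell list, at 600.3 ± 131 (SD) against 1288 ± 72.1 CPM in the vGluT2 line without overlap, and over both lines at 0.57 on the log2 scale (adjusted p = 0.0371 in edgeR). Of the lists reported, the Purkinje list was lower in HD of the Gad2 line without overlap, at 2114, 2153 and 2440 against 1914, 1837 and 1849 CPM, as were the GABAergic and vGluT2 lists. A list whose values are not reported here was lower there without overlap as well. The part of these markers in the levels of *Gria2*, *Gria3* and *Cacng7* was not tested.

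Of the 8 HD comparisons, edgeR called other genes of AMPA receptor biology in cerebellar total RNA only. There, 1 further auxiliary gene was higher and 1 lower of 9, 1 and 0 of 7 assembly genes, 1 and 2 of 11 scaffold genes, 2 and 0 of 10 organisers and 0 and 1 of 3 editing genes. That is 9 of 40, near the 24.5% of all genes called there. *Cacng5* was at 0.39 (adjusted p = 0.0407) and *Shisa6* at −0.65 (adjusted p = 0.0229) on the log2 scale by edgeR. *Abhd12* was at 0.50, *Dlg4*, the gene of the scaffold PSD-95, at 0.39, *Grip1* at −0.70, *Dlg2* at −0.55, *Nptxr* at 0.51, *Olfm2* at 0.56 and *Adarb2* at −1.36. In the 6 IPs and cerebral total RNA edgeR called 0 of these 40 genes. At an unadjusted p under 0.05 there were 5 in cerebral Gad2+ IPs, 2 in PV+ IPs, 0 in SST+ IPs, 6 in cerebral vGluT2+ IPs, 3 in cerebellar Gad2+ IPs, 7 in cerebellar vGluT2+ IPs and 5 in cerebral total RNA. Over all genes tested, that cut held 1313 of 14342, 630 of 14713, 207 of 14689 and 1045 of 14354 in the 4 cerebral IPs in this order. It held 324 of 14098 in cerebellar Gad2+ IPs, 2090 of 13487 in cerebellar vGluT2+ IPs and 984 of 14871 in cerebral total RNA. DESeq2 called 1 scaffold gene lower in cerebral Gad2+ IPs, 1 organiser lower in cerebellar vGluT2+ IPs and 1 editing gene lower in cerebral total RNA.

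*Gsg1l* in cerebellar total RNA was 21.9, 26.6 and 25.0 CPM in control and 20.3, 18.9 and 20.8 in HD mice of the Gad2 line, without overlap. It was 25.3, 23.1, 18.9 and 20.6 against 15.6, 23.0, 25.6 and 21 in the vGluT2 line, with overlap. Over both lines it differed by −0.22 (SE 0.121, adjusted p = 0.164) in edgeR, below the control median of its line in 5 of 7 HD libraries.

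Whether the HD effect differed between cell types was tested directly. Of the 10 genes, edgeR called 0 between cerebellar vGluT2+ IPs and cerebellar Gad2+ IPs (2 at an unadjusted p under 0.05, DESeq2 0), where 0.107% of all genes were called. It called 0 between vGluT2+ IPs of cerebellum and cerebrum (1 unadjusted, DESeq2 0), where 0.323% were. Likewise it called 0 between cerebral Gad2+ IPs and cerebral vGluT2+ IPs (0 unadjusted, DESeq2 0) and 0 between Gad2+ IPs of cerebellum and cerebrum (1 unadjusted, DESeq2 0), where 0% and 0% of all genes were called. In the order given, the unadjusted cut held 989 of 13971, 1062 of 14253, 209 of 14477 and 777 of 14472 genes. The comparisons between regions hold IPs of the same mice, and no fit with the mouse as a block is given for them. *Gsg1l* had the larger HD difference in cerebral Gad2+ IPs, by 0.53 (SE 0.204, adjusted p = 0.833) on the log2 scale in cerebellum minus cerebrum by edgeR, with 6 of 6 HD cerebral libraries below all controls and overlap in the cerebellum. *Cacng8* differed by 0.83 (SE 0.321, adjusted p = 0.494) between vGluT2+ IPs of cerebellum and cerebrum by edgeR, above the control median in 6 of 6 HD cerebellar IPs and 3 of 6 HD cerebral IPs.

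Genes with the most similar pattern were named for 5 of the 10, by Pearson correlation of log2(CPM + 1) over the 67 IPs, which share cell types and mice. They were *Pam* (0.970), *Sorcs2* (0.960) and *Kif17* (0.953) for *Gria1*, *Ncam2* (0.932), *Nlgn1* (0.925) and *B3galt1* (0.889) for *Gria2* and *Slc24a2* (0.984), *Atrnl1* (0.964) and *Akap2* (0.954) for *Gria3*. For *Gria4* they were *Ptar1* (0.943), *Golim4* (0.936) and *Setd7* (0.935), and for *Gsg1l* *Rin1* (0.979), *Synpo* (0.973) and *Celf5* (0.966).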

How the data were processed

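The authors aligned stranded mRNA libraries (TruSeq) with STAR and quantified them with Salmon, and deposited estimated counts per gene, not normalized. They ran both through nf-core/rnaseq, with spike-ins and the HA tag added to the reference. The submitters' processing notes name GRCm38.p6. Versions of STAR and Salmon and the annotation release were not given in the sources used. Of the values, 8.57% were not whole numbers and were rounded. The 92 spike-in rows, at most 4.45% of a library, stayed out of library sizes and tests. Identifiers were named with GENCODE M21 (55141 of 55401 matched). Replicates are different mice, and no replicate pair was as alike as sampling noise would make it (lowest chi-square per degree of freedom 8.37).

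CPM used TMM factors over 14800 genes. Protein-coding genes whose mean count passed 10 in the libraries compared were tested with edgeR 4.0.16 (quasi-likelihood, TMM), with Benjamini-Hochberg adjustment and a threshold of 0.05. Fits were HD against control within each cell type, total RNA with the Cre line as a covariate, IPs against total RNA with the genotype as a covariate, and control IPs in 1 fit of 6 groups. DESeq2 1.42.0 and limma 3.58.1 ran in R 4.3.3, and tables and plots were made in Python 3.11.15 (pandas 2.3.3, numpy 2.4.6, matplotlib 3.10.9). The fits were tested on simulated data. Alternatives were DESeq2, its size factors, library size alone, no count filter, the *Xist* level as a covariate, the replicate number as a block, single lines, matched mice and each library left out. Length balance as a covariate and the mouse as a block over regions were added after seeing the data. Labels pair no HD mouse with a control. By values, all 3 same-numbered pairs of cerebral Gad2-line total RNA deviated together (correlations 0.647 to 0.978), and the block changed no call of the 10 genes in cerebral total RNA.

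The 10 genes and all lists were chosen with earlier results of these data known. Named besides them were genes of the pathway lists called in an HD comparison, the 2 genes of each with the largest absolute log2 ratio of IP to total RNA, and the 3 genes most correlated with each pore subunit gene and *Gsg1l*. Per-gene counts do not separate isoforms or edited mRNA. Proteins were not used here. The results of 2 marker lists are not reported here. Depth per library stands in the opening, and genes with few counts are the least precise.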

Additional observations from a re-analysis of the deposited data

Results flagged for a closer look

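Of 150 sets of a gene and a group with 4 to 10 libraries, 11 held 1 library far from the others in CPM, where chance gives about 1 in 20 sets. *Gria1* was at 445 CPM in replicate 3 of the control cerebral vGluT2+ IPs, against 353 to 380.2 in the others. *Gria2* was at 117 CPM in replicate 4 of the HD cerebellar Gad2+ IPs, against 279 to 328. *Gria3* was at 117 CPM in replicate 1 of the control cerebral vGluT2+ IPs, against 205 to 253. *Gria4* was at 53.8 CPM in replicate 4 of the control SST-line total RNA, against 29.0 to 30.7. *Gsg1l* was at 145 CPM in the re-sequenced library of the HD cerebral vGluT2+ IPs, against 110.1 to 118. *Cacng3* was at 55.2 CPM in replicate 6 of the control SST+ IPs, against 73.1 to 80.3. *Cacng3* was at 5.98 CPM in replicate 5 of the control cerebellar vGluT2+ IPs, against 1.01 to 2.43. *Cacng7* was at 178 CPM in replicate 1 of the HD cerebral vGluT2+ IPs, against 95.0 to 113. *Cacng8* was at 6.65 CPM in replicate 5 of the control cerebellar vGluT2+ IPs, against 2.05 to 3.23. *Cnih2* was at 75.7 CPM in replicate 6 of the control PV+ IPs, against 35.1 to 48.0. *Cnih2* was at 186 CPM in replicate 4 of the HD SST+ IPs, against 68.3 to 77.6.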

How the results depend on the processing

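Of the log2 differences recomputed under other settings, besides single libraries left out, 1275 kept their direction and their side of the threshold, 45 lost it, 22 gained it and 58 changed sign. The number of the 10 genes called was within 1.5 times of its value in 132 of 140 cases and the number of all genes called in 99 of 140. Where a result changed, the cause was not tested. Fits of 1 line alone and of mice with both preparations held fewer samples. DESeq2 called 1 of the 10 genes in cerebral Gad2+ IPs and 1 in cerebral total RNA, both *Gsg1l*. Length balance as a covariate, chosen after seeing the data, gave 1 in cerebral total RNA and 0 in cerebellar total RNA, and the Gad2 line alone 0 there. The cerebral Gad2+ IPs against total RNA of the same line gave 4 in place of 8, the cerebellar vGluT2+ IPs with the mouse as a block 6 in place of 10, and the cell types with *Gria1* as the largest share were 3 in place of 5 without division by length. Below, a cell type stands for its IPs.

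With *Xist* as a covariate the sign turned to *Cnih2* −0.0095 in cerebral Gad2+, *Cacng7* −0.0037 and *Cacng8* 0.013 in SST+, *Cacng8* −0.024 in cerebral vGluT2+ and *Cnih2* 0.11 in cerebellar vGluT2+. With length balance as a covariate it turned to *Cnih2* −0.096 in cerebral Gad2+, *Gria4* 0.00088 in PV+, *Cacng7* −0.082 and *Cnih2* −0.019 in SST+, *Cacng8* −0.039 in cerebral vGluT2+, *Cnih2* 0.030 in cerebellar vGluT2+, *Gria1* −0.018, *Gria3* −0.098 and *Cacng8* 0.058 in cerebral total RNA, *Cnih2* −0.21 in cerebellar total RNA, *Gria1* 0.013 for SST+ against cerebral Gad2+ and *Gria2* 0.094 for cerebellar Gad2+ against cerebral Gad2+. With DESeq2 it turned to *Gria4* 0.0036 in PV+, *Gria1* 0.072 for SST+ against cerebral Gad2+, *Cnih2* 0.0015 for the HD effect, cerebellar vGluT2+ minus cerebellar Gad2+ and *Cnih2* −0.0064 for the HD effect, vGluT2+ cerebellum minus cerebrum. With DESeq2's size factors in edgeR it turned to *Gria4* 0.0036 in PV+. With no filter on low counts it turned to *Gria4* 0.0049 in PV+, *Cnih2* 0.014 in cerebral vGluT2+ and *Cnih2* 0.010 in cerebellar vGluT2+. With the replicate block it turned to *Cacng2* 0.051 and *Cnih2* 0.16 in PV+, *Cacng7* −0.038 in SST+, *Cacng8* −0.013 in cerebellar Gad2+ and *Cacng7* −0.028 in cerebral total RNA. With the re-sequenced HD library left out it turned to *Cacng2* 0.0010 in PV+ and *Cnih2* 0.060 in cerebellar Gad2+. With only the SST controls of 1 label prefix it turned to *Gria1* 0.041, *Cacng7* −0.048 and *Cacng8* 0.12 in SST+. With library size alone it turned to *Gria2* 0.045, *Gria3* 0.0074 and *Cnih2* 0.051 in cerebellar Gad2+, *Cnih2* 0.0019 in cerebellar vGluT2+, *Cacng7* −0.034 in cerebral total RNA, *Gria1* 0.19 for SST+ against cerebral Gad2+ and *Cacng7* 0.0075 for the HD effect, vGluT2+ cerebellum minus cerebrum. With the Gad2 line alone it turned to *Gria1* −0.10, *Gria3* −0.21 and *Cacng8* 0.056 in cerebral total RNA and *Cacng2* 0.0083 in cerebellar total RNA. With the PV line alone it turned to *Gria1* −0.11 and *Cnih2* 0.041 in cerebral total RNA. With the SST line added it turned to *Gria1* −0.0028, *Cacng7* −0.013 and *Cacng8* 0.033 in cerebral total RNA. With the vGluT2 line alone it turned to *Cacng7* −0.28 in cerebral total RNA. With total RNA of the same line only it turned to *Cacng7* −0.071 for PV+ against total RNA. With the mouse as a block it turned to *Cacng7* −0.060 for PV+ against total RNA and *Cnih2* −0.30 for cerebellar Gad2+ against total RNA. With the mouse as a block over regions it turned to *Gria2* 0.036 for cerebellar Gad2+ against cerebral Gad2+ and *Cacng7* −0.032 for cerebellar vGluT2+ against cerebral vGluT2+. With all IP libraries in 1 fit it turned to *Cnih2* −0.048 for the HD effect, vGluT2+ cerebellum minus cerebrum.

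Leaving out each library in turn (99 refits of the HD comparisons, 34 of the control IPs), the log2 differences that changed sign ran in cerebral Gad2+ *Cacng3* from −0.098 to 0.023 and *Cnih2* from −0.012 to 0.13 and in PV+ *Gria2* from −0.22 to 0.056, *Gria3* from −0.18 to 0.021, *Gria4* from −0.088 to 0.095, *Cacng2* from −0.097 to 0.032 and *Cnih2* from −0.21 to 0.036. They ran in SST+ *Gria2* from −0.39 to 0.064, *Gsg1l* from −0.22 to 0.015, *Cacng3* from −0.25 to 0.012, *Cacng7* from −0.16 to 0.19, *Cacng8* from −0.30 to 0.029 and *Cnih2* from −0.17 to 0.43 and in cerebral vGluT2+ *Cacng7* from −0.046 to 0.17 and *Cnih2* from −0.063 to 0.14. They ran in cerebellar Gad2+ *Gria2* from −0.11 to 0.11, *Gria3* from −0.15 to 0.032, *Gria4* from −0.0061 to 0.16, *Gsg1l* from −0.048 to 0.19, *Cacng3* from −0.095 to 0.13, *Cacng7* from −0.0021 to 0.15 and *Cnih2* from −0.24 to 0.072 and in cerebellar vGluT2+ *Gria1* from −0.29 to 0.045, *Cacng2* from −0.054 to 0.062, *Cacng7* from −0.035 to 0.21 and *Cnih2* from −0.12 to 0.27. They ran in cerebral total RNA *Gria1* from −0.0078 to 0.14, *Gria3* from −0.11 to 0.47, *Cacng7* from −0.16 to 0.081 and *Cacng8* from −0.074 to 0.042 and in PV+ against SST+ *Gria3* from −0.15 to 0.024. They ran in SST+ against cerebral Gad2+ *Gria1* from −0.058 to 0.073 and *Gria2* from −0.084 to 0.18 and in cerebellar Gad2+ against cerebral Gad2+ *Gria2* from −0.21 to 0.013. They ran in cerebellar vGluT2+ against cerebral vGluT2+ *Cacng7* from −0.040 to 0.22. The number of the 10 genes called ran from 0 to 1 in cerebellar vGluT2+, 0 to 1 in cerebral total RNA, 0 to 8 in cerebellar total RNA, 1 to 3 in PV+ against SST+ and 2 to 4 in SST+ against cerebral Gad2+.

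The replicate numbers of HD and control mice mark different animals. Correlations of same-numbered pairs were over 0.1 in every pair in 1 of 12 sets only, so a block on the number is no paired test elsewhere. As a block it gave 0 of the 10 genes and 9 of all genes called in cerebellar total RNA in place of 6 and 3544, and changed no other call of the 10 genes in an HD comparison.

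Genes called over the whole table moved from 4 in cerebral Gad2+ to 75 (DESeq2) and 9 (the replicate block), 5 in PV+ to 42 (DESeq2), 1 (library size alone), 1 (*Xist* as a covariate) and 0 (the replicate block) and 0 in SST+ to 2 (DESeq2). They moved from 1 in cerebral vGluT2+ to 25 (DESeq2), 0 (DESeq2's size factors in edgeR), 0 (no filter on low counts), 0 (*Xist* as a covariate), 4 (length balance as a covariate) and 0 (the replicate block), 2 in cerebellar Gad2+ to 22 (DESeq2), 1 (DESeq2's size factors in edgeR), 0 (library size alone), 1 (no filter on low counts), 0 (*Xist* as a covariate), 0 (the replicate block) and 0 (the re-sequenced HD library left out) and 285 in cerebellar vGluT2+ to 663 (DESeq2), 178 (*Xist* as a covariate), 768 (length balance as a covariate) and 109 (the replicate block). They moved from 21 in cerebral total RNA to 119 (DESeq2), 420 (length balance as a covariate), 0 (the Gad2 line alone), 0 (the PV line alone), 0 (the vGluT2 line alone) and 96 (the SST line added), 3544 in cerebellar total RNA to 85 (length balance as a covariate), 9 (the replicate block), 0 (the Gad2 line alone) and 7565 (the vGluT2 line alone) and 9437 in cerebral vGluT2+ against total RNA to 6134 (the mouse as a block). They moved from 15 for the HD effect, cerebellar vGluT2+ minus cerebellar Gad2+ to 72 (all IP libraries in 1 fit) and 67 (DESeq2), 0 for the HD effect, Gad2+ cerebellum minus cerebrum to 7 (all IP libraries in 1 fit) and 21 (DESeq2) and 46 for the HD effect, vGluT2+ cerebellum minus cerebrum to 87 (all IP libraries in 1 fit) and 126 (DESeq2).

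With library size alone the genes called higher and lower were 186 and 147 in place of 124 and 161 for cerebellar vGluT2+, 4 and 22 in place of 6 and 15 for cerebral total RNA, 610 and 2273 in place of 1732 and 1812 for cerebellar total RNA, 6023 and 4189 in place of 5057 and 5325 for SST+ against total RNA and 881 and 1206 in place of 1238 and 909 for PV+ against SST+. They were 4517 and 3240 in place of 3692 and 4092 for PV+ against cerebral Gad2+, 5004 and 3370 in place of 4165 and 4400 for PV+ against cerebral vGluT2+, 4949 and 2798 in place of 3677 and 4114 for SST+ against cerebral Gad2+ and 5335 and 2743 in place of 3989 and 4257 for SST+ against cerebral vGluT2+. With DESeq2's size factors they were 1 and 0 in place of 1 and 1 for cerebellar Gad2+. Library size alone moved the median of all genes by 0.13 for SST+ against total RNA, 0.12 for PV+ against cerebral Gad2+, 0.14 for PV+ against cerebral vGluT2+, 0.19 for SST+ against cerebral Gad2+ and 0.22 for SST+ against cerebral vGluT2+. Depth limits the genes with few counts most, which are *Cacng3* and *Cacng8* in cerebellar vGluT2+, where a library held as few as 26 and 67 counts.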
